A study of Mus musculus with 9 samples.

Results

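Transcript levels of 5 striated muscle genes were followed in N2A cells, a mouse neuroblastoma line. The genes were Tnnt1, Tnnt3 and Tnni1, which encode subunits of skeletal muscle troponin, Des, which encodes the intermediate filament protein desmin, and Cav3, which encodes the muscle caveolin. They were taken by symbol from a table of 15977 genes, and were chosen by their low measured level in this line and with their measured difference between S970D and WT already known. The level and that difference chose the members and are therefore given as a description, with no test in their support. All 5 had a row, and 91 other genes of 9 lists of muscle structure and muscle regulation are set beside them.

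Every library came from N2A cells whose gene for MOV10, an RNA helicase, had been knocked out and which were transfected for 24 hours with 2 micrograms of DNA. The DNA encoded MOV10 S970D, with aspartate in place of serine 970, MOV10 S970A, with alanine there, or MOV10 WT. Each form had 3 libraries numbered 1 to 3. Untransfected cells were not analysed here. The labels do not say whether the knockout is 1 clone, of which species the transfected DNA is, or whether replicates were separate cultures, so p-values measure the spread between these libraries, which may be technical. Values are log2 CPM as the authors deposited them, a log scale of counts per library total. No read counts were given, so the depth is unknown and the counting error of a low value such as that of Cav3 cannot be given.

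Muscle contraction is switched on when calcium binds troponin C, which releases the hold of troponin I on the actin filament, while troponin T anchors the complex to tropomyosin. Slow skeletal, fast skeletal and cardiac muscle use different sets of troponin genes, although slow and cardiac muscle share Tnnc1 for troponin C. Desmin filaments tie neighbouring myofibrils together at their Z discs, and caveolin 3 forms the caveolae of the muscle cell membrane. Neuroblastoma lines derive from the sympathetic lineage, in which these genes are not defining markers.

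All 5 are protein-coding genes of GRCm38. Tnnt1, slow skeletal troponin T (ENSMUSG00000064179.13), lies on the minus strand of chromosome 7 from 4504570 to 4516382. Tnnt3, fast skeletal troponin T (ENSMUSG00000061723.18), lies on the plus strand of the same chromosome from 142498836 to 142516009. Tnni1, slow skeletal troponin I (ENSMUSG00000026418.16), and Des (ENSMUSG00000026208.9) are both on the plus strand of chromosome 1, from 135779434 to 135810989 and from 75360329 to 75368579. Cav3 (ENSMUSG00000062694.7) is on the plus strand of chromosome 6 from 112459505 to 112472872. The annotated transcript with the longest coding sequence was 1059 bases for Tnnt1, 1079 for Tnnt3, 1150 for Tnni1, 3028 for Des and 1157 for Cav3. Of the 5, Des was longer than the median of 2660 bases over the genes of the table. Their GC content was 54.1%, 53.2%, 55.9%, 56.5% and 56.6% in the same order, each above the median of 50.3%.

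Promoters of 4 of the 5 genes were matched in RefSeq (build GRCm38.p6), and are shown for the letters of muscle promoters, which the choice of the genes did not use. Each runs from 250 bases before to 50 bases after the RefSeq transcript start, 300 bases in all, 5′ to 3′. Capitals mark matches, on either strand, of letters known from muscle promoters: the E-box CANNTG bound by MyoD-type factors, the MEF2-type core CTANNNNTA, the M-CAT element CATTCC bound by TEAD factors, and the TATA box TATAAA. The CArG box, bound by SRF, was searched as well.
Tnnt1 (chr7:4515926-4516225, minus strand): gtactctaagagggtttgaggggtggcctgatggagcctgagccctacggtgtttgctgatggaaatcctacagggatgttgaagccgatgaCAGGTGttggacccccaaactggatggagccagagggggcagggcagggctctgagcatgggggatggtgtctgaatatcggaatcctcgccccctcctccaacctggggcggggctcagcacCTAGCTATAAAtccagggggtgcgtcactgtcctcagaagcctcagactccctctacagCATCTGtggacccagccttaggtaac
Tnni1 (chr1:135799171-135799470, plus strand): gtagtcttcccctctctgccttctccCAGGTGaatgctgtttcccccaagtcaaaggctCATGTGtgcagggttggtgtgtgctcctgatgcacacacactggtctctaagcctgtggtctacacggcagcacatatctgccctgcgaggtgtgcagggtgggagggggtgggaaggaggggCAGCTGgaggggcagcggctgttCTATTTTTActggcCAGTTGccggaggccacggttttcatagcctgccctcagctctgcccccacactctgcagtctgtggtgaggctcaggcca
Des (chr1:75360042-75360341, plus strand): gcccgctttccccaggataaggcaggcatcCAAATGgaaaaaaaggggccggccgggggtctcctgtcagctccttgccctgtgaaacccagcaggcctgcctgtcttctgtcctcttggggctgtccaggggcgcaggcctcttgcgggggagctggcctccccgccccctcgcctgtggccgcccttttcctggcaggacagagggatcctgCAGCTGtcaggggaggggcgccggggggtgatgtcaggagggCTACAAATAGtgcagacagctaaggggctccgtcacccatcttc
Cav3 (chr6:112459255-112459554, plus strand): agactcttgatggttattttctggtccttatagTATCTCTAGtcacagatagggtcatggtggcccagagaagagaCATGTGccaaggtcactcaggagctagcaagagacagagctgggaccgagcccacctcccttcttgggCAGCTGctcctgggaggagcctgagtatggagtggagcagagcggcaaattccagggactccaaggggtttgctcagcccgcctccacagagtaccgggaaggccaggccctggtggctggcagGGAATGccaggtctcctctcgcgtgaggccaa
Tnnt3 was not among the matches. The E-box letters occurred 2 times in the promoter of Tnnt1, 4 times in that of Tnni1, 2 times in that of Des and 2 times in that of Cav3, where 72.1% of 27025 RefSeq promoters of this length hold at least 1. MEF2-type core letters were found in each of the 4, once in Tnnt1, Tnni1 and Cav3, and in 2 overlapping matches in Des, against 21.0% of all promoters. This pattern is loose, since it allows any base in its 4 middle places. Only the match of Tnni1 holds A or T alone there, and those of Tnnt1, Des and Cav3 hold G or C as well. The TATA letters stood at -30 to -25 from the start of Tnnt1, where they overlapped the MEF2-type match at -35 to -27, and 14.2% of promoters hold them. Cav3 alone among the 4 held the M-CAT letters, at 18 to 23 after its start, against 14.6% of promoters. No CArG box was matched in the 4 windows, and 1.57% of all promoters hold one. The RefSeq start of Tnni1 lies 19987 bases downstream of the outermost GENCODE end of the gene and that of Tnnt1 407 bases downstream, so the windows of these genes belong to an internal start of the longer annotation. Such matches describe the letters of a window and not a bound site.

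The libraries did not divide cleanly by MOV10 form. Of the variance over all genes, 64.0% lay on the first principal component, where S970D libraries scored from 0.246 to 0.44, S970A replicate 1 scored 0.404, and the other S970A libraries and the WT libraries scored from -0.455 to -0.0442. Replicate pairs with S970A replicate 1 had a median absolute log2 difference of 0.58 and 0.659, against 0.162 to 0.404 for the other pairs of the same group. The differences of the 5 genes and the counts of genes that passed are therefore also given without S970A replicate 1, while averages, sums and profiles of S970A include it. Mov10, the transcript of the transfected gene, averaged 14.72 ± 0.14 log2 CPM in S970D, 15.09 ± 0.42 in S970A and 15.37 ± 0.41 in WT (SD, n = 3 each). Mov10 was thus lowest on average where the 5 muscle genes were highest. In S970A replicate 1 it read 14.617, within the S970D range of 14.569 to 14.835, against 15.242 and 15.418 in S970A replicates 2 and 3. WT replicates 1, 2 and 3 read 14.905, 15.493 and 15.706. The part of Mov10 in the differences of the 5 genes was not tested.

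Tnnt1 read 2.33, 2.59 and 2.18 log2 CPM in S970D replicates 1, 2 and 3, 2.25, 1.36 and 1.35 in S970A replicates 1, 2 and 3, and 1.80, 0.97 and 0.86 in WT replicates 1, 2 and 3. The lowest S970D library lay above the highest WT library, and S970A replicate 1 lay within the S970D range. Tnnt1 averaged 2.37 ± 0.21 in S970D, 1.65 ± 0.52 in S970A and 1.21 ± 0.51 in WT (SD, n = 3 each), or 5.19, 3.29 and 2.42 CPM when each library's value is turned back to CPM and averaged.

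Tnnt3, the fast fibre counterpart of Tnnt1, read 1.33, 1.06 and 1.03 log2 CPM in the S970D libraries, 0.82, 0.38 and 0.17 in the S970A libraries, and 0.64, -0.40 and 0.32 in the WT libraries, in replicate order. Tnnt3 was the 1 gene of the 5 whose 3 S970D libraries all lay above the 3 S970A libraries, and WT replicate 2 was its lowest library. Its averages were 1.14 ± 0.16 in S970D, 0.46 ± 0.33 in S970A and 0.19 ± 0.53 in WT (SD, n = 3 each).

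Tnni1, the inhibitory subunit of the slow fibre complex, read 2.02, 1.95 and 1.83 log2 CPM in the S970D libraries, 2.37, 1.01 and 1.43 in the S970A libraries, and 1.18, 1.09 and 0.62 in the WT libraries. S970A replicate 1 was the highest of all 9 libraries for this gene, and S970A replicate 2 lay within the WT range. Averages were 1.94 ± 0.10 in S970D, 1.60 ± 0.70 in S970A and 0.96 ± 0.30 in WT (SD, n = 3 each), so S970A had the widest spread.

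Des had the highest log2 CPM of the 5, with 3.91, 3.72 and 3.57 in the S970D libraries, 3.87, 2.90 and 2.59 in the S970A libraries, and 3.15, 2.53 and 2.41 in the WT libraries. S970A replicate 1 had the next highest value after S970D replicate 1, and the other S970A libraries stood within the WT range. Des averaged 3.73 ± 0.17 in S970D, 3.12 ± 0.67 in S970A and 2.69 ± 0.40 in WT (SD, n = 3 each), or 13.4, 9.37 and 6.65 CPM.

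Cav3 was close to the bottom of the table, with a lower mean in 4.06% of genes. It read -0.94, -1.93 and -1.09 log2 CPM in the S970D libraries, -1.60, -2.002 and -2.43 in the S970A libraries, and -2.92, -1.93 and -2.81 in the WT libraries. S970D replicate 2 and WT replicate 2 were nearly equal, at -1.932 and -1.934, so the S970D and WT libraries stood apart by that small gap alone. The averages were -1.32 ± 0.53 in S970D, -2.01 ± 0.42 in S970A and -2.55 ± 0.54 in WT (SD, n = 3 each), and no library was at the lowest value of the table, -4.09.

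**Figure D1:**
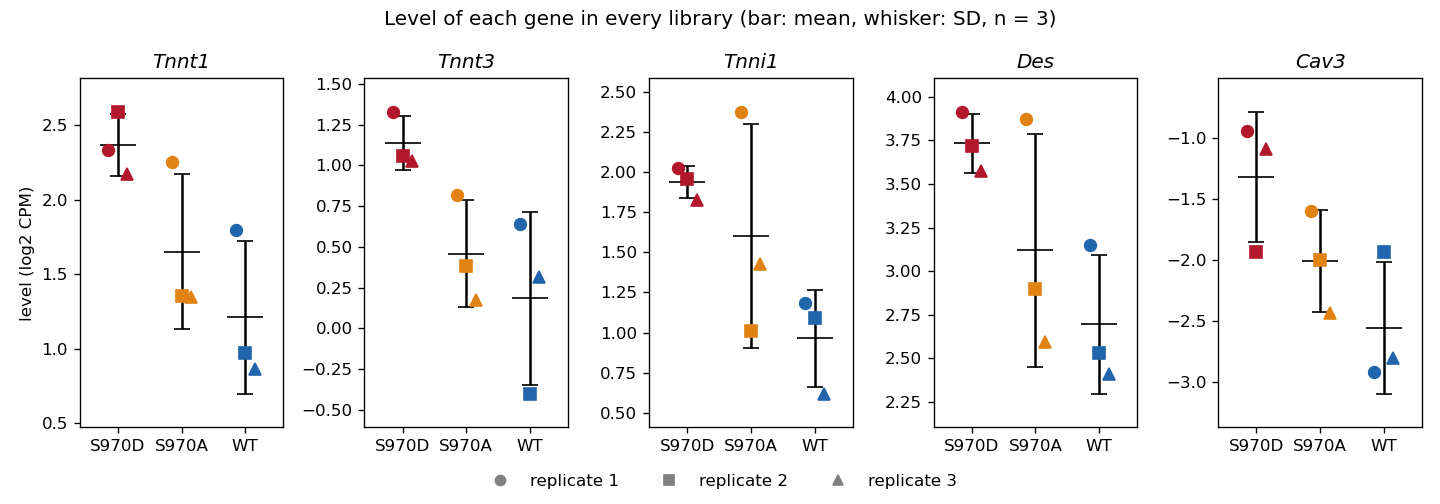
Level of Tnnt1, Tnnt3, Tnni1, Des and Cav3 in log2 CPM (vertical axis, a separate range per gene) in the S970D, S970A and WT libraries, with the replicate number as the symbol, the mean as a bar and the SD as a whisker (n = 3). S970D libraries lie above WT libraries for every gene, by 0.002 log2 CPM at the closest for Cav3, and S970A replicate 1 lies within the S970D range for Tnnt1, Des and Cav3, above it for Tnni1 and below it for Tnnt3.

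Divided by transcript length, the order changed at the top. Tnnt1 averaged 1.66 log2 CPM per kilobase over the 9 libraries, Des 1.58, Tnni1 1.30, Tnnt3 0.48 and Cav3 -2.17. The ranges of Tnnt1 and Des overlapped in each group, and so did those of Des and Tnni1 in S970A and WT but not in S970D. Cav3 lay below the other 4 in every library. Tnni1 and Tnnt3 overlapped in WT, but not in S970D or S970A. Per kilobase 43.5% of genes had a lower mean than Tnnt1, against 31.6% without regard to length, and 9.75% had a lower mean than Cav3.

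S970D against WT sets a form that mimics a phosphate at serine 970 against the unaltered protein. Tnnt1 was higher in S970D by 1.16 ± 0.33 (SE, log2), which is a ratio of 2.23. Tnnt3 differed by 0.95 ± 0.30, Tnni1 by 0.97 ± 0.33, Des by 1.04 ± 0.33 and Cav3 by 1.23 ± 0.43, ratios of 1.93, 1.96, 2.06 and 2.35. The sizes for the low genes depend on the unknown prior count: with 1 CPM added before the log, Cav3 differed by 0.26, Tnnt3 by 0.57, Tnni1 by 0.70, Tnnt1 by 0.88 and Des by 0.93. In bulk RNA, more cells that make a transcript and more of it per cell cannot be told apart. None of the 5 differences passed an adjusted p under 0.05 (limma adjusted p from 0.0756 to 0.0765, adjusted over all 15977 genes), where 0.00626% of all genes passed, 1 gene that is no member and was lower in S970D. It is Cxcl1, a chemokine gene, named here after its values were seen. At an unadjusted limma p under 0.05 stood all 5 members and 7081 genes in all, 44.3% of the table. Each of the 5 genes had its S970D libraries above its WT libraries, as did 27.9% of all genes. An exact two-sided permutation test of each gene's 6 values gave p = 0.1, below which groups of 3 cannot go. Since the members were chosen with this contrast known, these counts add nothing beyond the description.

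With the replicate number as a block over all 9 libraries, S970A included, 4 of the 5 genes passed. The labels number the libraries of each group but state no pairing. Limma adjusted p was 0.00715 for Des, 0.00893 for Tnnt1, 0.0157 for Tnnt3, 0.0218 for Tnni1 and 0.0597 for Cav3, while 22.2% of all genes passed as higher. Leaving S970A replicate 1 out of the shared estimate of the spread left the differences as they were and brought all 5 genes past the threshold (limma adjusted p from 0.00728 for Des to 0.0401 for Cav3), as it did for 22.8% of all genes in the higher direction. The genes were chosen with this contrast known, so these passes are a description as well and no test in their support.

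S970A against WT asks about a residue that cannot be phosphorylated. It uses the same WT libraries as the comparison above. Tnni1 was higher in S970A by 0.64 ± 0.33 (SE) on the log2 scale, Cav3 by 0.54 ± 0.43, Tnnt1 by 0.44 ± 0.33, Des by 0.43 ± 0.33 and Tnnt3 by 0.27 ± 0.30. None passed (limma adjusted p = 0.776 for each of the 5), where 0% of all genes did and 280 genes, none of them a member, had an unadjusted limma p under 0.05. Exact two-sided permutation tests gave p = 0.3 for Tnni1 and Cav3, 0.4 for Tnnt1 and 0.5 for Des and Tnnt3. No member had its S970A libraries clear of its WT libraries, where 3.1% of all genes did in the higher direction.

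Much of that difference rested on 1 library for Tnnt1, Tnnt3, Tnni1 and Des. Without S970A replicate 1, Tnnt1 differed from WT by 0.14, Tnnt3 by 0.09, Tnni1 by 0.25, Des by 0.05 and Cav3 by 0.34 on the log2 scale (limma adjusted p = 1 for each of the 5), and the median over the 5 genes was 0.14 in place of 0.44. Other single libraries moved the values up as well as down. The median over the 5 genes was 0.69 without S970A replicate 3 and 0.65 without WT replicate 1, and between 0.34 and 0.54 without S970A replicate 2, WT replicate 2 or WT replicate 3. Tnnt1 differed by 0.74 without WT replicate 1 and by 0.27 without WT replicate 3, and Cav3 by 0.85 without WT replicate 2 and by 0.36 without WT replicate 1. Des differed by 0.69 without S970A replicate 3, by 0.65 without WT replicate 1 and by 0.28 without WT replicate 3. Tnnt3 differed by 0.50 without WT replicate 1, by 0.41 without S970A replicate 3 and, without WT replicate 2, its lowest library, by -0.020. Tnni1 ran from 0.47 without WT replicate 3 to 0.93 without S970A replicate 2, besides its 0.25 without S970A replicate 1. These differences are within the spread of the replicates, which does not show that S970A and WT gave equal levels.

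S970D against S970A compares both altered forms and shares the S970D libraries with the contrast that chose the genes. Tnnt1 was higher in S970D by 0.72 ± 0.33 (SE) on the log2 scale, Cav3 by 0.69 ± 0.43, Tnnt3 by 0.68 ± 0.30, Des by 0.61 ± 0.33 and Tnni1 by 0.33 ± 0.33. None of the 5 passed (limma adjusted p = 0.536 for Tnni1 and 0.411 for the other 4), and 0% of all genes did. Tnnt3 was the 1 member among the 1110 genes, 6.95% of the table, with an unadjusted limma p under 0.05, and the 1 member whose groups did not overlap (exact two-sided permutation p = 0.1, the smallest possible), as was true in the higher direction for 3.96% of all genes. Permutation p was 0.2 for Tnnt1 and Cav3, 0.3 for Des and 0.5 for Tnni1 in the same exact test.

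S970A replicate 1 was the highest S970A library for each of the 5 genes, so without it their differences were bound to be larger. Des was higher in S970D by 0.99 (limma adjusted p = 0.0171), Tnnt1 by 1.02 (limma adjusted p = 0.0254) and Tnni1 by 0.72 (limma adjusted p = 0.0380), while Tnnt3, at 0.86 (limma adjusted p = 0.0543), and Cav3, at 0.90 (limma adjusted p = 0.158), did not pass. Of all genes, 18.7% passed as higher in that fit. The choice of the genes used the S970D libraries, so these passes are a description and no test in their support. Leaving out another S970A library made the differences of Tnnt1, Tnnt3, Tnni1 and Des smaller. Tnni1 differed by 0.036 without S970A replicate 2, and without S970A replicate 3 Des differed by 0.35 and Cav3 by 0.48. The median over the 5 genes was 0.90 without S970A replicate 1, 0.57 without replicate 2 and 0.48 without replicate 3, in place of 0.68. The 3 S970D libraries lay above S970A replicates 2 and 3 for each of the 5 genes, and for 33.8% of all genes.

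**Figure D2:**
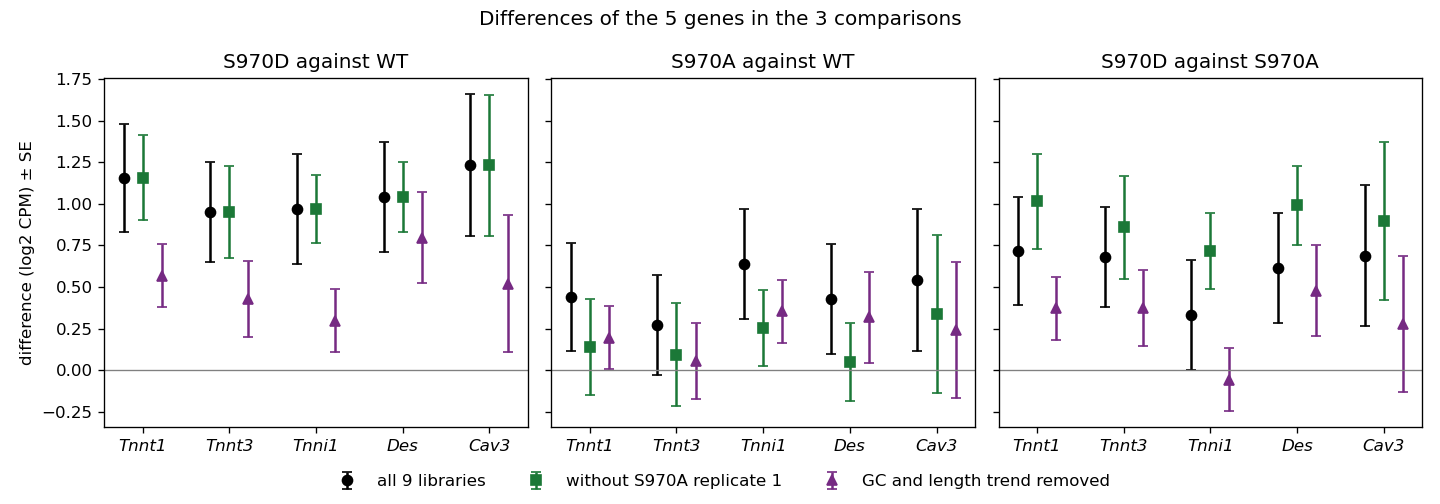
Difference of each gene in log2 CPM (vertical axis) with its SE from limma, for S970D against WT, S970A against WT and S970D against S970A, from all 9 libraries, without S970A replicate 1, and with the GC and length trend taken out. S970D against WT lies near 1 for all 5 genes and is lower for each after trend removal, and Tnni1 turns to -0.058 after it in S970D against S970A.

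The 5 transcripts are GC-rich and, Des apart, short, so the differences were also computed with that taken into account. Once the dependence on GC content and length had been taken out of each library, Des was higher in S970D than in WT by 0.80 ± 0.27 (SE; limma adjusted p = 0.117) and Tnnt1 by 0.57 ± 0.19 (limma adjusted p = 0.117). Cav3 then differed by 0.52 ± 0.41, Tnnt3 by 0.43 ± 0.23 and Tnni1 by 0.30 ± 0.19 (limma adjusted p = 0.383, 0.213 and 0.285). In the corrected values the S970D and WT libraries of Cav3 overlapped, with S970D replicate 2 at -2.27 and WT replicate 2 at -1.54. Those of Tnnt1, Tnnt3, Tnni1 and Des stayed apart. For Tnnt1 and Tnnt3 the S970D libraries also lay above the S970A libraries. The share of all genes that stood apart was not computed for corrected values. With the replicate block as well, Des alone passed (limma adjusted p = 0.0191), as did 12.9% of all genes in the higher direction. Des was also the 1 member that passed with the trend removed and S970A replicate 1 left out, in S970D against WT (limma adjusted p = 0.0226, with 13.1% of all genes higher) and in S970D against S970A (0.77 on the log2 scale, limma adjusted p = 0.0439, with 8.11% of all genes higher). The choice of the genes used S970D against WT, so these passes remain a description. Removing the trend takes out with it whatever part of a real difference follows GC content or length, so the deposited and the corrected values are given side by side, and the part of GC content and length in these differences was not tested.

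The place of S970A replicate 1 moved down after that correction for Tnnt1, Tnnt3 and Cav3. Counted from the highest of 9 libraries, its rank in the deposited values was 3 for Tnnt1, 4 for Tnnt3, 1 for Tnni1, 2 for Des and 3 for Cav3. In the corrected values its rank was 5 for Tnnt1, 8 for Tnnt3 and 6 for Cav3, but 1 for both Tnni1 and Des.

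The choice of the genes fixes that they are high in S970D and low in WT, and their profile over the 9 libraries is given as a description. Relative to each gene's own mean, the average of the 5 was 0.72, 0.47 and 0.49 log2 CPM in S970D replicates 1, 2 and 3, 0.53, -0.28 and -0.39 in S970A replicates 1, 2 and 3, and -0.24, -0.56 and -0.73 in WT replicates 1, 2 and 3. S970A replicate 1 sat at the level of the S970D libraries, and WT replicate 1 near S970A replicates 2 and 3. Des came closest to this average, with a root mean square difference of 0.122 log2 CPM, and Cav3 was farthest, at 0.393. Among pairs of genes Tnnt1 and Des were most alike, with a root mean square difference of 0.16 between their centred values, while Cav3 differed from the other 4 by 0.47 to 0.57.

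**Figure D3:**
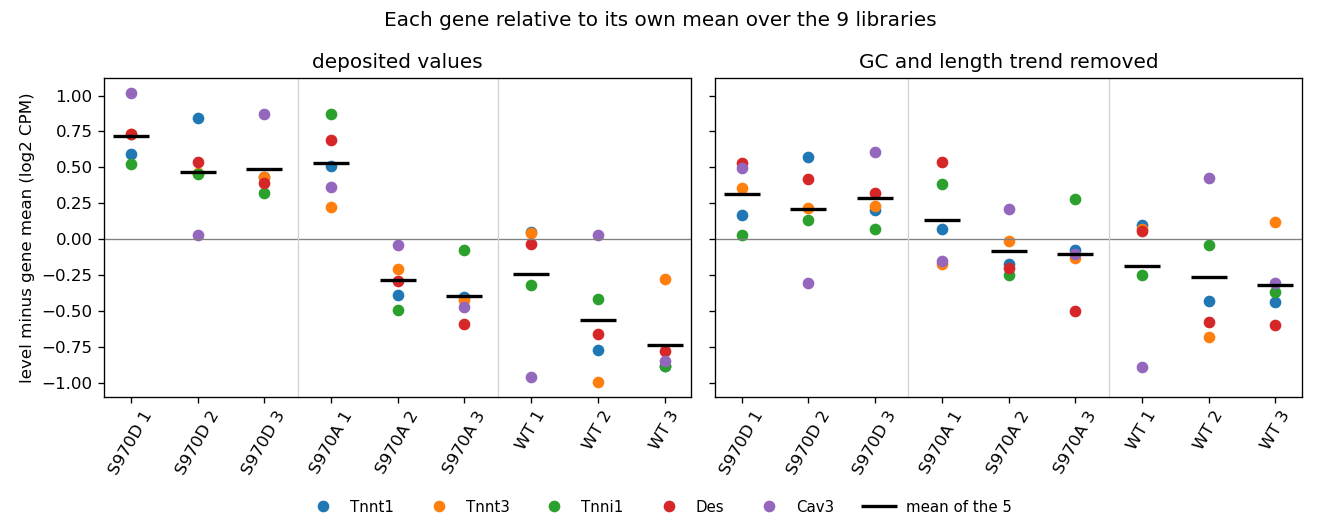
Level of each of the 5 genes minus its own mean over the 9 libraries in log2 CPM (vertical axis), by library, in the deposited values and after removal of the GC and length trend, with the average of the 5 as a black bar. In the deposited values the average is 0.72 in S970D replicate 1, 0.53 in S970A replicate 1 and -0.73 in WT replicate 3, and the span is narrower after the trend is removed.

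Other genes shared that profile, and how many depends on the member they are set against. Of 3882 named genes with a mean level in the range of the 5, 0.361% lay nearer to the average than Des did. The share was 3.68% for Tnnt1, 4.59% for Tnni1, 8.76% for Tnnt3 and 24.2% for Cav3. The average includes the values of the 5 genes, which draws it towards them. The 5 genes nearest to it, by root mean square difference over the 9 libraries in log2 CPM, were Particl, at 0.0602, Smagp, at 0.0630, Pth1r, at 0.0868, Dbndd1, at 0.0908, and Ptgis, at 0.0970, none of which is in the 9 muscle lists. Pth1r, the receptor of parathyroid hormone, averaged 3.41 ± 0.22 log2 CPM in S970D, 2.90 ± 0.49 in S970A and 2.35 ± 0.34 in WT (SD, n = 3 each). Ptgis, which encodes prostacyclin synthase, averaged 3.48 ± 0.05 in S970D, 2.94 ± 0.51 in S970A and 2.47 ± 0.41 in WT.

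The troponin family was measured more fully than Tnnt1, Tnnt3 and Tnni1 show. Of 12 listed troponin and tropomyosin genes 11 had a row, and 8 of them are not among the 5. The 4 further troponin genes each had a higher mean in S970D than in WT, with differences between 0.96 and 1.60 on the log2 scale. Tnnt2, cardiac troponin T, was the most abundant troponin and averaged 5.82 ± 0.11 log2 CPM in S970D, 4.98 ± 0.84 in S970A and 4.85 ± 0.39 in WT, a difference of 0.96 ± 0.38 (SE) between S970D and WT. Tnni3, cardiac troponin I, averaged 0.27 ± 0.47, -1.49 ± 1.01 and -1.33 ± 1.06 in S970D, S970A and WT, and differed by 1.60 ± 0.63 between S970D and WT. For the calcium-binding subunits, Tnnc2 of fast muscle differed by 1.52 ± 0.38 and Tnnc1 of slow and cardiac muscle by 0.96 ± 0.43 between S970D and WT. In this list 3 genes, Tnni3 among them, averaged under 0 log2 CPM over the 9 libraries. The sizes of differences at such low levels depend on the unknown prior count.

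Tropomyosins, the partners of troponin T, did not move as 1 group. Tpm2, the beta chain, averaged 7.60 log2 CPM in S970D, 6.83 in S970A and 6.45 in WT, a difference of 1.15 ± 0.39 (SE) between S970D and WT. The other 3 had lower means in S970D than in WT, by -0.40 ± 0.16 for Tpm1, -0.50 ± 0.19 for Tpm3 and -0.39 ± 0.17 for Tpm4. Over the 8 genes the median difference between S970D and WT was 0.96, against -0.002 over all genes tested. With Tnnt1, Tnnt3 and Tnni1 the list median was 0.34 after the GC and length trend was removed. None of the 8 passed in the fit of all 9 libraries. Without S970A replicate 1, 4 passed as higher and 2 as lower in S970D than in WT, where 22.8% and 24.9% of all genes did, and 5 passed as higher and 0 as lower in S970D than in S970A, where 18.7% and 20.8% did. With the replicate block 5 were higher and 3 lower in S970D than in WT, where 22.2% and 23.3% of all genes were. The S970D libraries were clear of the WT libraries in 4 of the 8 as higher and in 2 as lower, where 27.9% and 29.3% of all genes were. The median transcript of the list was 1150 bases long.

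Desmin belongs to the type III intermediate filaments, whose other measured genes were far more abundant. Per kilobase Vim, vimentin, averaged 9.52 log2 CPM over the 9 libraries and Prph, peripherin, the type III filament of sympathetic neurons, 9.24, against 1.58 for Des. Prph differed by 0.77 ± 0.27 (SE) between S970D and WT in log2 CPM and Vim by 0.32 ± 0.18. After removal of the trend Prph differed by 0.10 and Vim by 0.11, against 0.80 for Des. Nes, nestin, and Synm, synemin, which copolymerise with desmin or vimentin, differed by 0.15 ± 0.14 and 0.01 ± 0.13 between S970D and WT. Plec, the linker plectin, differed by 0.11 ± 0.14. Cryab, the small heat shock protein that binds desmin, differed by 1.01 ± 0.35 and Sync, syncoilin, by -1.09 ± 0.43. Over the 7 measured genes of this list other than Des the median was 0.15, and none passed in the fit of all 9 libraries. Without S970A replicate 1, Prph and Cryab passed as higher and Sync as lower in S970D than in WT (limma adjusted p = 0.00633, 0.00829 and 0.0210). With the replicate block the same 3 genes passed (limma adjusted p = 0.0119, 0.0273 and 0.00804). Of all genes, 22.8% passed as higher and 24.9% as lower without S970A replicate 1, and 22.2% and 23.3% with the block. Passing in these fits does not set the 3 genes apart.

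Caveolae need caveolins and cavins. Of 10 listed caveola genes 8 had a row, with Cav3 the only caveolin, and the other 7 were all more abundant than Cav3. Cavin3 was the 1 other gene of the list with a difference of this size. It averaged 6.59 log2 CPM in S970D, 5.86 in S970A and 5.31 in WT, with a difference of 1.28 ± 0.34 (SE) between S970D and WT. Cavin4, the muscle cavin, averaged 0.87 in S970D, 0.96 in S970A and 0.78 in WT. Cavin1, which all caveolae require, differed by -0.18 ± 0.22 and Cavin2 by -0.69 ± 0.27 between S970D and WT. Pacsin2 and Pacsin3, which bend membranes, differed by -0.36 ± 0.19 and 0.33 ± 0.24, and Ehd2, an ATPase of the caveolar neck, by -0.08 ± 0.16. Over the 7 measured genes other than Cav3 the median was -0.083, and none passed in the fit of all 9 libraries. Without S970A replicate 1, Cavin3 and Pacsin3 passed as higher and Cavin2 as lower in S970D than in WT (limma adjusted p = 0.00626, 0.0482 and 0.0154). With the replicate block Cavin3 passed as higher and Cavin2 as lower (limma adjusted p = 0.00642 and 0.0127). The shares of all genes that passed as higher and as lower were 22.8% and 24.9% without S970A replicate 1. They were 22.2% and 23.3% with the block, so passing does not set these genes apart.

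**Figure D4:**
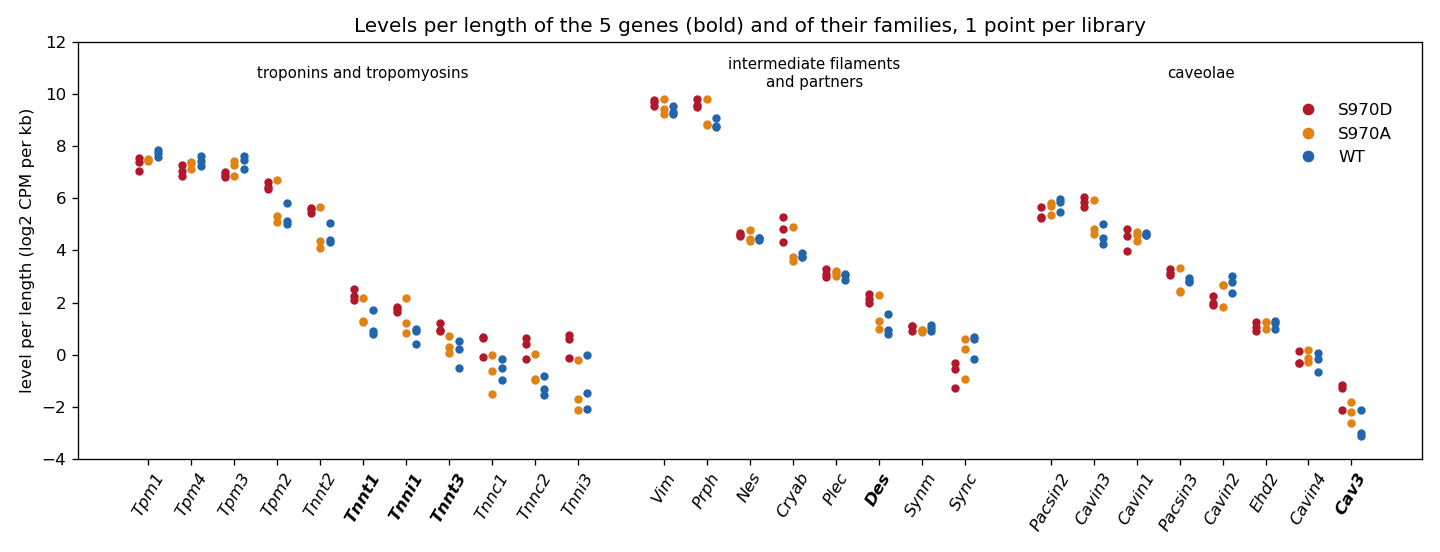
Level per length in log2 CPM per kilobase (vertical axis) of the measured troponin and tropomyosin, intermediate filament and caveola genes, 1 point per library, with S970D, S970A and WT side by side and the 5 genes in bold. Tnnt1, Tnni1 and Tnnt3 lie between the abundant tropomyosins and Tnnt2 above and the troponins Tnnc1, Tnnc2 and Tnni3 below, Des lies far below Vim and Prph, and Cav3 is the lowest gene shown.

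Sarcomere genes beyond troponin varied in size and direction. In the list of myosin and the thick filament, 11 of 12 measured genes had a higher S970D mean than WT mean, and the median difference was 0.61 on the log2 scale, and 0.59 after trend removal. Its most abundant gene was Myh3, the embryonic myosin heavy chain, at 8.51 log2 CPM in S970D, 8.37 in S970A and 8.32 in WT, a difference of 0.18 ± 0.15 (SE) between S970D and WT. Obsl1, an obscurin relative, differed by 0.52 ± 0.21, Mylk3, the cardiac myosin light chain kinase, by 0.88 ± 0.22 and Mylpf, a fast muscle myosin light chain, by 0.78 ± 0.32.

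In the list of sarcomeric actin and the thin filament, 7 of 9 were above WT by their S970D mean, and the median was 0.35. Actn2, alpha-actinin 2 of the Z disc, averaged 3.54 log2 CPM in S970D, 2.85 in S970A and 2.23 in WT, a difference of 1.30 ± 0.41 (SE) between S970D and WT. Tmod1, a cap of the actin pointed end, differed by 0.06 ± 0.12, Nebl, nebulette, by 0.03 ± 0.26 and Actn3, the fast fibre alpha-actinin, by 0.58 ± 0.26.

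Among 9 measured Z disc genes 5 had a higher mean in S970D, with a median of 0.15. Bag3, a chaperone partner of the Z disc, differed between S970D and WT by 0.26 ± 0.13 (SE), Pdlim7 by 0.58 ± 0.22, Speg, a muscle kinase gene that neighbours Des, by 0.72 ± 0.22, and Flnc, the muscle filamin, by -0.34 ± 0.20. Excitation and contraction coupling and muscle metabolism had 8 of 13 higher, with a median of 0.37. Eno3, the muscle enolase, differed by 0.92 ± 0.30, Cacnb1, a calcium channel subunit, by 0.28 ± 0.17, Atp2a2, the calcium pump of slow muscle and heart, by -0.36 ± 0.17 and Cacna1c, the cardiac calcium channel, by -0.40 ± 0.20.

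The dystrophin complex went the other way by its median, at -0.58, with 4 of 10 measured genes higher. Utrn, utrophin, differed by -1.07 ± 0.33 (SE) between S970D and WT and Dag1, dystroglycan, by -0.72 ± 0.35, whereas Dtnb, dystrobrevin beta, differed by 0.87 ± 0.24 and Sgce, epsilon sarcoglycan, by 0.02 ± 0.12. Its median transcript was 4108.5 bases long, and its median after trend removal was -0.24.

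Transcription factors of muscle and heart were split, with 8 of 16 higher and a median of -0.08. Hand2, which is also a factor of sympathetic neurons, averaged 10.31 log2 CPM in S970D, 9.67 in S970A and 9.29 in WT, a difference of 1.02 ± 0.29 (SE) between S970D and WT. Gata4, a heart factor, differed by 0.03 ± 0.14, Mef2d, which binds the MEF2 element, by -0.76 ± 0.33 and Tead1, which binds M-CAT, by -0.74 ± 0.35.

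Over the 91 other muscle genes together, 57 had a higher S970D mean than WT mean, and the median difference was 0.25, where 49.9% of all genes were higher and the median of all was -0.002. After removal of the trend the median of these genes was 0.11. None of the 91 passed in the fit of all 9 libraries in any of the 3 comparisons. Without S970A replicate 1, 28 passed as higher and 18 as lower in S970D than in WT, where 22.8% and 24.9% of all genes did, 24 as higher and 19 as lower in S970D than in S970A, where 18.7% and 20.8% did, and 0 in S970A against WT. In that fit the dystrophin complex had 3 higher and 6 lower in S970D than in WT, the transcription factors 4 and 6, the thick filament list 5 and 0, the thin filament list 3 and 0, the Z disc list 2 and 1, and the excitation and contraction list 3 and 1. In the fit of all 9 libraries with the replicate block 24 were higher and 19 lower in S970D than in WT, where 22.2% and 23.3% of all genes were.

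**Figure D5:**
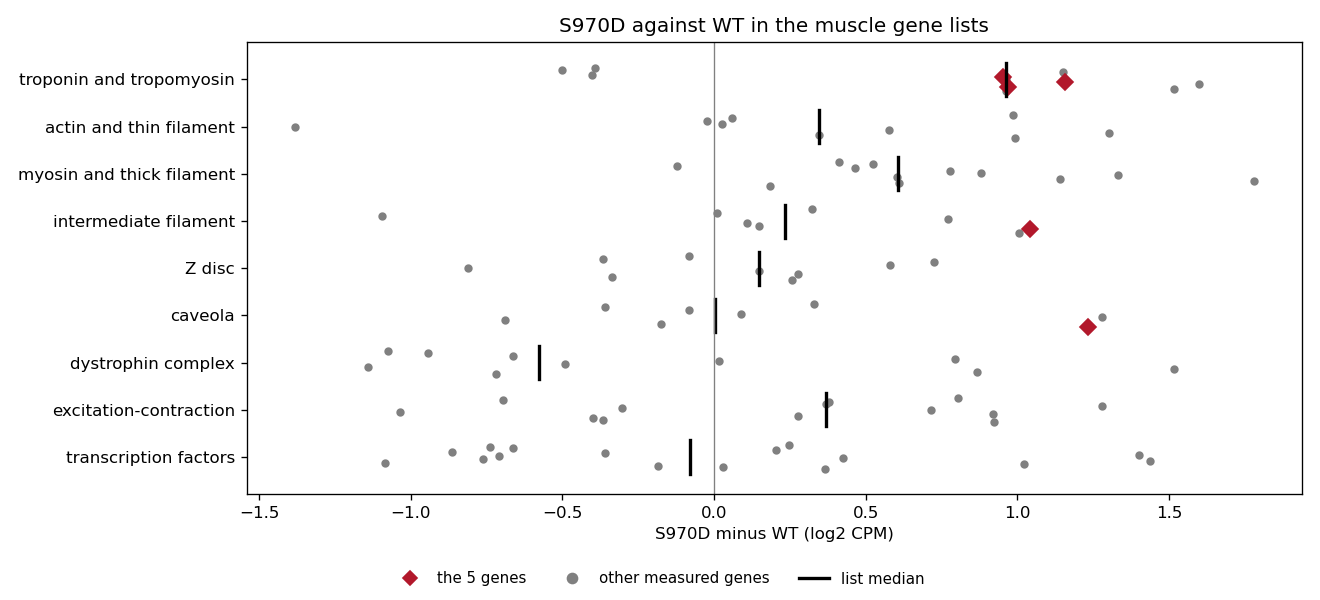
Difference between S970D and WT in log2 CPM (horizontal axis) of every measured gene in the 9 muscle lists (rows), with the 5 genes as diamonds, other genes as grey points and the list median as a black line. Medians, with the 5 genes included, run from 0.96 in the troponin and tropomyosin list to -0.58 in the dystrophin complex list, and the 5 genes all lie near 1.

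Markers of the line itself were abundant. Of 21 sympathetic neuroblast and neuron markers 19 had a row, and their summed level was 5097 to 5929 CPM in S970D, 3560 to 5677 in S970A and 3527 to 4037 in WT. Of 24 striated muscle markers 14 had a row, 8 of them with a mean under 0 log2 CPM, and their sum was 436 to 457 CPM in S970D, 322 to 505 in S970A and 349 to 394 in WT, most of it Myh3. The median difference between S970D and WT was 0.37 for the neuronal list and 0.69 for the striated muscle list, 0.10 and 0.33 after trend removal. The smooth muscle list, which holds Des, had 8 of 11 genes measured and a median of 0.18, or 0.10 over the 7 genes other than Des. Fibroblast markers had 3 of 11 measured and a median of -0.15, endothelial markers 4 of 9 and a median of 0.48, and macrophage and leukocyte markers 1 of 9, Cd68, at 1.27. The part of any other cell type in the differences of the 5 genes was not tested.

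The genes next to the 5 on the chromosome moved to different degrees. Tnni3, 1923 bases from Tnnt1 on the same strand, and Tnnt2, 25365 bases from Tnni1, are troponin genes themselves, as given above. Ppp1r12c, a myosin phosphatase subunit on the other side of Tnnt1, differed by 0.76 ± 0.30 (SE) between S970D and WT, and Phlda3, beside Tnni1, by 0.95 ± 0.35. Lsp1 and Mrpl23, on either side of Tnnt3, differed by 0.92 ± 0.29 and 1.04 ± 0.37. Speg, 6718 bases from Des, differed by 0.72 ± 0.22, and Dnpep, 42339 bases away on the other side, by 0.36 ± 0.15. Around Cav3, Lmcd1 differed by 0.28 ± 0.36 and Rad18 by -0.57 ± 0.22, at distances of 129080 and 146978 bases. Tnnt3 overlaps the annotated opposite-strand gene Prr33, and Des overlaps Gm15179 likewise. The kit marks strand, but the sources used here do not say whether strand was used in counting, so reads of these pairs may not have been told apart.

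The authors' deposited table gives a cluster colour to 6419 genes, 40.2% of it, and how it was assigned is not stated. In the authors' deposited table Tnnt1, Tnni1 and Des are blue, a colour shared by 2194 genes (13.7%), and Tnnt3 and Cav3 carry none.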

How the data were processed

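Libraries were made with a stranded mRNA kit and read for 101 cycles from each end, per the labels' protocols. Tools listed without a role in the submitters' processing notes are Salmon 1.1.0, bcl2fastq 2.20 and R 3.6.3, with the build GRCm38. The authors deposited log2 CPM for 15977 genes, 1 column per library. The prior count, scaling and low-gene filter are not stated in the sources used here. Turned back to CPM, the libraries sum to 955214 to 1069215, and 50 to 93 genes per library share the lowest value of -4.09.

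Limma 3.58.1 in R 4.3.3 was fitted to all genes and 9 libraries, with group as the only term, an intensity trend, 6 residual degrees of freedom and two-sided p-values with Benjamini-Hochberg adjustment over all genes (threshold 0.05). The fit was run on simulated data with independent noise for each gene and planted differences larger than those of the 5 genes. That run lacked the variation that genes share in these libraries, so it does not show how the fit behaves under it. Groups came from the labels. The 5 genes, the gene lists and the tests were chosen with earlier results of these data known. Named genes were the 5, all other measured genes of their 3 family lists, up to 4 of highest level in each other muscle list, neighbours, and the 5 most alike in profile. Same-numbered libraries of S970D and WT deviated together to a small degree (correlation over genes 0.308, 0.107 and 0.156). The replicate number was used as a block over all 9 libraries in an alternative fit, although the labels state no pairing. The corresponding correlations were 0.592, 0.0667 and 0.488 for S970A with WT and 0.381, 0.00428 and 0.244 for S970D with S970A. Length and GC content came from GENCODE vM21, matched for 15959 genes (99.9%), and their trend was removed from each library by splines with 5 degrees of freedom per property.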

Additional observations from a re-analysis of the deposited data

How the results depend on the processing

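Over 20 alternatives, 269 of the recomputed differences of the 5 genes kept their direction and side of the threshold, 19 passed where they had not, and 3 turned. Tnni1 turned to -0.058 in S970D against S970A with the GC and length trend removed, with and without the replicate block. Tnnt3 in S970A against WT ran from -0.020 to 0.50 as each library was left out. The limma adjusted p of the 5 ranged from 0.00715 to 0.415 in S970D against WT, from 0.436 to 1 in S970A against WT and from 0.0171 to 0.968 in S970D against S970A.

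In S970D against WT, 1 gene passed. No gene (0) passed with a pseudocount of 1 CPM, without the intensity trend or with the GC and length trend removed. With only the 6 libraries 6727 passed, with the replicate block 7276, with trend removal and block 3947, and with trend removal and S970A replicate 1 left out 4184, an alternative added once the data had been seen. Leaving out each library gave 0 to 7615, the highest without S970A replicate 1, where 5 of the 5 genes passed (0 to 5 over the libraries left out). Of the 5 genes, 4 passed with the 6 libraries and 4 with the replicate block, and 1 in each fit that joined trend removal to another change. The 5 were chosen with this contrast known, so such passes are a description. Their median of 1.04 became 0.70 with the pseudocount, which weighs on low genes, and 0.52 wherever the trend was removed. Centring each library on its median shifted the median over all genes to 0.11 and that of the 5 to 1.15.

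In S970A against WT, where 0 genes passed, leaving out each library gave 0 to 1. In S970D against S970A, leaving out each library gave 0 to 6307 genes and 0 to 3 of the 5, and trend removal without S970A replicate 1 gave 2692 genes, 1 of the 5 and a median of 0.34 in place of 0.68. A filter at a mean of 1 log2 CPM dropped Tnnt3 and Cav3, and one at 0 dropped Cav3, so no median of the 5 exists there. The cause of these changes was not tested. Depth is unknown, so counting error cannot be given for Cav3, the lowest of the 5.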
